A study of Mus musculus with 10 samples.

Results

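The pan-macrophage identity genes are 8 genes whose products are widely used to recognise macrophages: Csf1r, Cx3cr1, Adgre1, Cd68, Itgam, Itgax, Cd14 and Aif1. They were found by gene symbol among the 17279 genes of the deposited table, in which each of the 8 was listed once, and all 8 passed the filter on low counts that left 16949 genes. The question addressed here is how strongly sorted gut macrophages carried these genes, how far the libraries differed, and whether the levels differed after stroke.

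RNA was sequenced from lamina propria macrophages of the whole small intestine of C57BL6/J mice, collected 24 h after surgery. The sham group (n = 5 libraries) had sham surgery, and the pMCAO group (n = 5) had permanent occlusion of the middle cerebral artery, a model of ischaemic stroke without reperfusion. The mucosal layer was peeled off, and cells positive for CX3CR1-GFP, a green fluorescent reporter of the fractalkine receptor, were taken by fluorescence-activated sorting. Both groups therefore share the sort, and its reporter allele, the age of the mice and their sex are not given in the sources used here. Replicate 1 of each group carries a description that marks it as a pool, and the labels call all replicates biological without naming the animals, so that p-values measure the spread between these libraries.

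Macrophages of the gut wall are replenished to a large extent by blood monocytes, which need signalling through the CSF1 receptor to survive and differentiate. As they mature they gain the adhesion receptor F4/80 and the fractalkine receptor, and they keep phagocytic and adhesive machinery that they share with other myeloid cells. None of the 8 genes is therefore exclusive to macrophages: Itgax and Itgam are also carried by dendritic cells and granulocytes, and Cd14 by monocytes. Because the sort used a Cx3cr1 reporter, its presence in the libraries is a condition of the sampling and not a result. Whether the reporter replaces coding sequence of an endogenous allele, as in a widely used knock-in line, is not stated. Its part in the level of Cx3cr1, and in the ratio of Cx3cr1 to Csf1r, was not tested.

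Total counts per library lay between 18894151 and 60665972 in the sham group and between 6430643 and 28672285 in the pMCAO group. The smallest count of any of the 8 genes in any library was 914, for Cd14, so counting error was small beside the differences between libraries described here. The 8 genes together took 0.237% to 0.451% of the counts of a library. Levels are given as CPM, the count scaled to a common library size after adjustment by TMM, a method that sets the bulk of genes equal between libraries. The library labelled sham replicate 5 and the library labelled pMCAO replicate 4 held 1756 and 4461 CPM of Xist, a transcript of the inactive X chromosome, against 1.39 to 4.92 CPM in the other 8. They were not alike in 4 genes of the Y chromosome (Ddx3y, Eif2s3y, Kdm5d and Uty), which summed to 132 CPM in sham replicate 5 and to 1.23 CPM in pMCAO replicate 4, against 346 to 576 CPM elsewhere, so that sham replicate 5 held both kinds of transcript. Fold changes of the 8 genes are also given without these 2 libraries, and the part of sex in them was not tested. Counts of 3 ribosomal RNA genes (mt-Rnr1, mt-Rnr2 and Rn18s-rs5) made up 2.91% to 22.4% of a library, and immunoglobulin genes 0.587% to 19.2%.

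Per length of transcript the 8 genes spanned a 6.83-fold range of mean level, from Cd68 at the top to Cx3cr1 at the bottom. Over all 10 libraries Cd68, a heavily glycosylated protein of late endosomes and lysosomes, averaged 258 ± 61.5 CPM per kb of exon (SD, n = 10). Csf1r, the receptor for CSF1 and IL-34, followed with 200.1 ± 59.0 CPM per kb, and Aif1, which encodes the calcium- and actin-binding protein IBA1, with 169 ± 65.5. Adgre1, which encodes F4/80, averaged 149 ± 56.4 CPM per kb, and Itgam, which encodes CD11b, 136 ± 35.1. Cd14, which encodes the co-receptor that hands lipopolysaccharide to TLR4, averaged 115 ± 73.1 CPM per kb. Itgax, which encodes CD11c, and Cx3cr1 stood lowest at 50.4 ± 13.9 and 37.7 ± 10.6 CPM per kb.

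Most steps of this order were smaller than the spread between libraries. Cd68 lay above Csf1r per kb in 9 of 10 libraries, and Csf1r above Aif1 in 8. Aif1 exceeded Adgre1 in 7 of 10 libraries, Adgre1 exceeded Itgam in 5, and Itgam exceeded Cd14 in 7, so that these neighbours were not separated. The widest step was that from Cd14 to Itgax, a 2.28-fold difference of mean CPM per kb that was kept in 8 of 10 libraries and turned in both libraries numbered 5. Cx3cr1 lay below Itgax in 7 of 10 libraries. Length was the sum of all annotated exons, and with the longest transcript in its place Aif1 moved to the first place, at 296 CPM per kb.

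**Figure D1:**
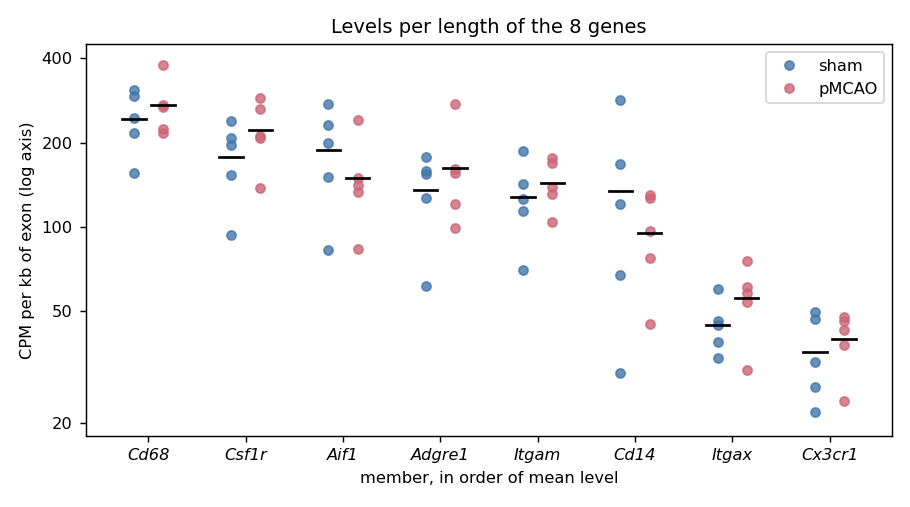
Level of each of the 8 genes in CPM per kb of annotated exon (log axis), with 1 point per library (blue sham, red pMCAO, n = 5 each) and a black line at each group mean. Itgax and Cx3cr1 sit lowest, Cd14 has the widest scatter, and in every gene the points of the groups overlap.

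No member differed between pMCAO and sham in the test across all genes. At a false discovery rate of 0.05, edgeR's quasi-likelihood test called 0 of the 8, against a background of 0% of the 16949 genes tested (0 genes called). At an unadjusted p under 0.05 it gave 0 of the 8, against 799 genes or 4.71% of all. The groups overlapped in all 8, whereas they did not overlap in 0.985% of all genes tested (0.448% with pMCAO higher and 0.537% with pMCAO lower). The fold changes of 6 members were above 0 and those of 2 below it, with a median of 0.16 on the log2 scale, beside a median of −0.0059 over all genes, of which 49.4% were above 0. In each of the 8 the change was smaller than the SD between libraries of a group, which ran from 0.36 to 0.99 on the log2 scale. These are bulk samples, in which fewer cells of a type and less RNA per cell cannot be told apart.

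**Figure D2:**
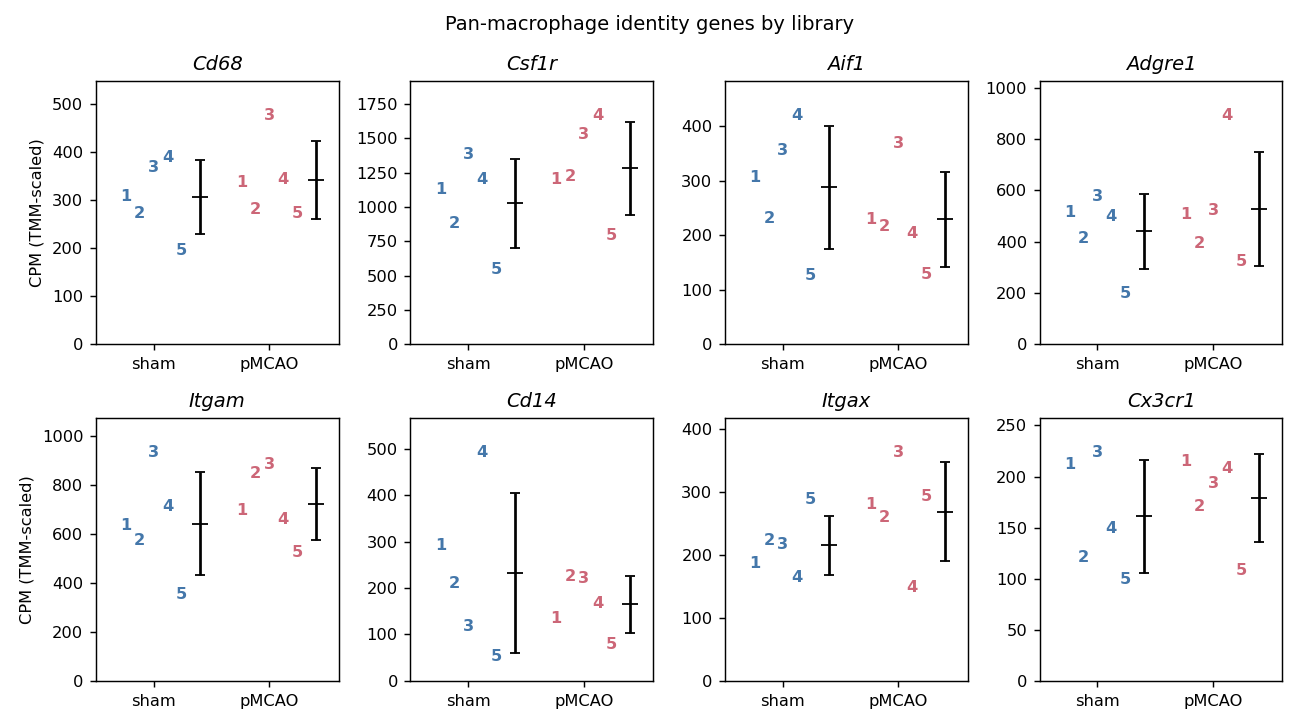
TMM-scaled CPM of each gene in each library, each number standing for the replicate of that number (blue sham, red pMCAO), with the mean and SD of each group in black (n = 5). Replicate 5 is the lowest of its group in every panel but that of Itgax, and the ranges of the groups overlap in all 8 panels.

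Among the receptors for growth factors and chemokines, Csf1r was the most abundant member in CPM and stood 54th of the 16949 genes, with no regard to length. Its levels in sham replicates 1 to 5 were 1129, 883, 1382, 1204 and 542 CPM, and in pMCAO replicates 1 to 5 they were 1203, 1221, 1529, 1669 and 795 CPM. Replicate 5 was the lowest of either group, 4 of 5 pMCAO libraries lay above the sham mean, and 2 lay above the highest sham library. The means were 1028 ± 326 CPM in sham and 1283 ± 338 CPM in pMCAO (SD, n = 5 each), a log2 fold change of 0.32 ± 0.27 (SE) that did not pass the test (edgeR adjusted p = 0.922). Its 95% interval, in folds, ran from 0.832 to 1.87, the span of changes compatible with these 5 libraries a group. Without sham replicate 5 the log2 change was 0.15, and without both libraries that held Xist it was 0.044.

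Cx3cr1, the receptor for the chemokine fractalkine, stood at 212, 121, 224, 149 and 98.8 CPM in the 5 sham libraries. The pMCAO libraries held 215, 171, 193, 208 and 108 CPM. All pMCAO values fell inside the sham range, and the group means of 161 ± 55.2 and 179 ± 43.0 CPM gave a log2 fold change of 0.15 ± 0.26 (edgeR adjusted p = 0.955). Without both libraries that held Xist the log2 change was −0.042. The ratio of Cx3cr1 to Csf1r within a library, which does not depend on scaling, averaged −2.67 ± 0.26 in sham and −2.84 ± 0.21 in pMCAO on the log2 scale, a difference of −0.16 (2-sided exact permutation test, p = 0.317, adjusted over 3 ratios 0.476). Without both libraries that held Xist the difference of this ratio was −0.065.

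The ligands of these receptors were scarce in the sorted cells. Csf1, chosen here as the ligand of Csf1r after its values were seen, held 5.54 ± 4.14 CPM in sham and 3.15 ± 2.43 in pMCAO, and Il34 was not analysed here. Fractalkine itself, Cx3cl1, held 0.614 ± 0.272 and 0.420 ± 0.241 CPM (edgeR adjusted p = 0.944). Of the CSF1 receptor axis 5 of 6 genes were tested and 0 passed in either direction, with 1 fold change above 0 and 4 below it. Its most abundant gene was Tyrobp, the DAP12 adaptor of myeloid receptors, at 1041 ± 207 and 897 ± 162 CPM. The smallest unadjusted p in the list was that of Ptpn6, the phosphatase SHP-1, with a log2 fold change of −0.28 ± 0.14 (edgeR adjusted p = 0.922).

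Adgre1 varied more than Csf1r among the pMCAO libraries. Sham replicates 1 to 5 held 515, 411, 577, 499 and 199 CPM, and pMCAO replicates 507, 393, 523, 893 and 321 CPM. A single pMCAO library, replicate 4, lay above the highest sham library and set the sign of the difference. The means of 440 ± 147 and 527 ± 221 CPM gave a log2 fold change of 0.26 ± 0.32 (edgeR adjusted p = 0.945), which became −0.022 without pMCAO replicate 4 and −0.20 without both libraries that held Xist. Of the other EGF-TM7 adhesion receptors, Adgre5, which encodes CD97, held 521 ± 66.6 and 457 ± 72.6 CPM. Adgre4, which encodes the related EMR4, held 165 ± 56.4 and 217 ± 49.3 CPM, a log2 change of 0.39 ± 0.24 (edgeR adjusted p = 0.922), and 0 of these 2 genes passed the test.

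The integrin subunits Itgam and Itgax lie side by side on the plus strand of chromosome 7, at chr7:128062640-128118491 and chr7:128129547-128150657 of GRCm38. Each pairs with the beta2 chain Itgb2, CD11b to form complement receptor 3 and CD11c to form complement receptor 4. Itgam held 634, 575, 935, 714 and 354 CPM in the sham libraries and 697, 847, 885, 660 and 524 CPM in the pMCAO libraries. All pMCAO values lay within the sham range, and the means were 642 ± 211 and 723 ± 146 CPM (log2 fold change 0.17 ± 0.25, edgeR adjusted p = 0.950). Without sham replicate 5 this change was 0.012, and without both libraries that held Xist it was 0.044. Of the exon bases of Itgam, 68.7% are shared with Gm49368, a gene model on the same strand that is not listed in the table, and whether the counting treated reads of these exons as ambiguous is not stated, so the level of Itgam may be too low in all libraries.

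Itgax followed another pattern than its neighbour. Its levels were 186, 222, 216, 164 and 288 CPM in sham and 279.8, 259, 363, 148 and 293 CPM in pMCAO. The lowest library of either group was replicate 4, and sham replicate 5, the lowest sham library for all other members, was the highest for Itgax. The means of 215 ± 47.0 and 269 ± 77.8 CPM gave a log2 fold change of 0.32 ± 0.23, the smallest unadjusted p of the 8 genes (edgeR adjusted p = 0.922). Without both libraries that held Xist it was 0.60 (edgeR unadjusted p = 0.00674, adjusted 0.999). Without pMCAO replicate 4 alone it was 0.47 (edgeR unadjusted p = 0.0318, adjusted 0.999). The log2 ratio of Itgax to Itgam was −1.53 ± 0.76 in sham and −1.46 ± 0.50 in pMCAO, a difference of 0.07 (2-sided exact permutation p = 0.873, adjusted 0.873), and its highest value in either group was that of replicate 5, at 0.814 and 0.559 Itgax CPM per Itgam CPM.

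The shared beta2 chain varied far less than its alpha partners. Itgb2, named here for that pairing after its values were seen, lay between 51.9 and 67.6 CPM per kb over all 10 libraries, while Itgam ran from 70.4 to 186 and Itgax from 30.9 to 75.6 CPM per kb. Itgam therefore lay above Itgb2 per kb in every library. Itgb2 held 192 ± 14.5 CPM in sham and 182 ± 14.1 in pMCAO (log2 change −0.08 ± 0.13, edgeR adjusted p = 0.955). Of the 7 integrin partners and ligands listed, 0 passed the test, with 2 fold changes above 0 and 5 below. Tln1, the integrin-activating talin, was the most abundant at 394 ± 67.2 and 400.03 ± 71.1 CPM, and Fermt3, which encodes kindlin-3, had the smallest unadjusted p (edgeR adjusted p = 0.922) at a log2 change of −0.20 ± 0.14.

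Cd14 spread the most of all members. The sham libraries held 291, 209.7, 117, 493 and 52.1 CPM, a 9.46-fold range, and the pMCAO libraries 134, 226, 220.3, 167 and 77.9 CPM, a 2.90-fold range. The SD between libraries of a group was 0.99 on the log2 scale, larger than that of 93.8% of the genes with a mean of at least 10 CPM. No pMCAO library reached the sham mean of 233 ± 172 CPM, yet all lay inside the sham range, and the pMCAO mean of 165 ± 61.9 CPM gave a log2 fold change of −0.49 ± 0.49 (edgeR adjusted p = 0.925). Sham replicate 4 carried this difference, which was −0.036 without it, while without both libraries that held Xist it was −0.76. The ratio of Cd14 to Csf1r was −2.45 ± 0.98 in sham and −3.01 ± 0.39 in pMCAO on the log2 scale (difference −0.56, 2-sided exact permutation p = 0.270, adjusted 0.476).

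Of the other parts of the lipopolysaccharide receptor, Tlr4 and Ly96 were steadier than Cd14 relative to their means. Tlr4, the signalling receptor, and Ly96, its MD-2 subunit, are named for their pairing with Cd14 after their values were seen, and held 20.6 ± 8.33 and 43.3 ± 14.7 CPM per kb over the 10 libraries, beside 115 ± 73.1 for Cd14. Tlr4 had 109 ± 42.0 and 120.1 ± 54.5 CPM in sham and pMCAO, and Ly96 42.6 ± 15.1 and 45.8 ± 16.4. Of 9 genes in the list 0 passed the test, with 6 fold changes above 0 and 3 below. Ly86, which encodes MD-1, was the most abundant at 622 ± 169 and 641 ± 188 CPM. Lbp, the serum protein that delivers lipopolysaccharide to CD14, had the smallest unadjusted p (edgeR adjusted p = 0.922), and its sham mean rested on replicate 4 with 15.7 CPM, against 0.559 to 1.69 in the other sham and 0 to 1.05 in the pMCAO libraries. Sham replicate 4 was the highest library for both Cd14 and Lbp, and it also had the highest share of the ribosomal RNA genes, 22.4%, whose part in these levels was not tested.

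The intracellular members were Cd68 and Aif1. Cd68 was the steadiest of the 8 on the log2 scale, with an SD between libraries of a group of 0.36. It held 307, 271, 368, 388 and 196 CPM in sham and 336, 281, 476, 343 and 272 CPM in pMCAO. The means of 306 ± 77.4 and 342 ± 81.7 CPM gave a log2 fold change of 0.16 ± 0.22 (edgeR adjusted p = 0.947), which was 0.0032 without pMCAO replicate 3, the highest library, and 0.030 without both libraries that held Xist. Of its family, the lysosomal membrane proteins Lamp1 and Lamp2 held 819 ± 202 and 585 ± 160 CPM in sham and 876 ± 137 and 651 ± 126 CPM in pMCAO, and 0 of 3 family members tested passed.

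Aif1 and Cd14 were the members with fold changes below 0. Aif1 held 306, 232, 356, 420.4 and 127 CPM in sham and 228, 217, 369, 204 and 128 CPM in pMCAO. A single pMCAO library, replicate 3, lay above the sham mean, and the lowest libraries of the groups, both replicate 5, were nearly equal. The means of 288 ± 113 and 229 ± 87.2 CPM gave a log2 fold change of −0.33 ± 0.32 (edgeR adjusted p = 0.925), −0.17 without sham replicate 4, and −0.48 without both libraries that held Xist. Of 3 actin-bundling genes tested 0 passed. Lcp1, the leukocyte plastin, was the most abundant at 1266 ± 209 and 1219.9 ± 82.0 CPM, and Pls3, another plastin, had the smallest unadjusted p (edgeR adjusted p = 0.922) at 6.77 ± 2.71 and 11.1 ± 6.17 CPM.

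**Figure D3:**
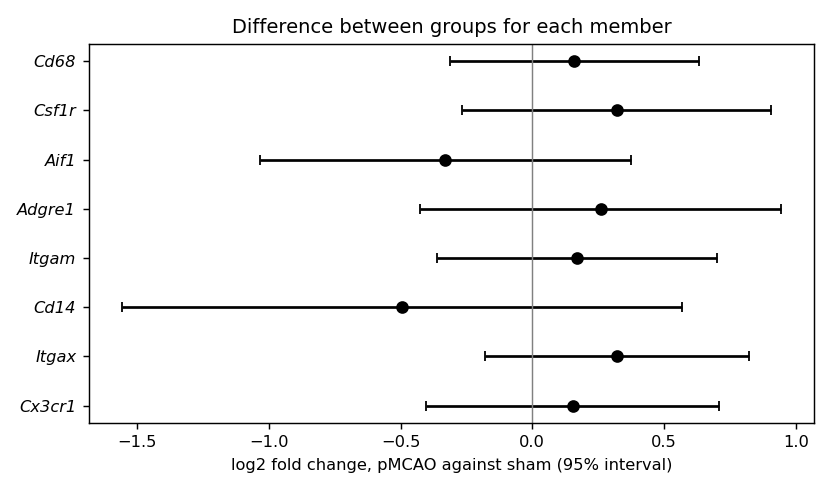
Log2 fold change of each gene in pMCAO against sham (points) with its 95% interval from the edgeR fit (bars, n = 5 libraries per group). All 8 intervals include 0, and that of Cd14 is the widest, from −1.56 to 0.57.

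Differences among libraries of the same group were larger than those between groups, and they were shared by most members. Replicate 5 was the lowest library for 7 of the 8 genes in the sham group and for 7 of the 8 in the pMCAO group, Itgax being the exception in both. Replicate 3 was the highest for 4 of the 8 in each group. The share of the ribosomal RNA genes was lowest of all libraries in sham replicate 5, at 2.91%, but stood at 7.44% in pMCAO replicate 5, above the 4.78% of pMCAO replicate 2, and its part in the pattern was not tested. The same held in the sum of a wider list: 16 other macrophage genes, among them the complement genes C1qa, C1qb and C1qc, summed to 11955 CPM (sham) and 13826 CPM (pMCAO) in the libraries numbered 5, and to between 17604 and 27186 CPM in the remaining 8. Lyz2 alone held 5173 and 4575 CPM of the sums in the libraries numbered 5. Not all of the genes were lowest there. Mertk was lowest in replicate 2 of each group, Cd163 in sham replicate 2 and pMCAO replicate 1, and Apoe in pMCAO replicate 1. Of these 16 genes 0 passed the test between groups, with 9 fold changes above 0 and 7 below and a median of 0.03 on the log2 scale. Lyz2, lysozyme M, led them at 7469 ± 1835 and 5975 ± 1527 CPM, and Cd163, the haemoglobin scavenger receptor, had the smallest unadjusted p (edgeR adjusted p = 0.922) at 248 ± 205 and 499 ± 447 CPM.

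Summed markers of some other cells moved with this pattern. The 6 dendritic cell markers were Flt3, Zbtb46, Xcr1, Clec9a, Itgae and Cd209a, and none of the 6 was at 0 in any library. Their sum reached 528 CPM (sham) and 526 CPM (pMCAO) in the libraries numbered 5 and lay between 147 and 403 CPM in the remaining 8. In sham replicate 5 Itgae alone held 297 CPM, against 95.9 CPM in sham replicate 2, and the sham peak of the sum rested on Itgae. Itgae, Flt3 and Zbtb46 were highest of the sham group in replicate 5. Clec9a and Cd209a were highest in sham replicate 2 (39.0 and 217 CPM, against 31.4 and 120 CPM in replicate 5), and Xcr1 in sham replicate 1. In pMCAO replicate 5 all but Xcr1 were highest of their group. The sum of 5 mast cell markers (Cpa3, Kit, Mcpt1, Mcpt2 and Fcer1a) was also highest in replicate 5 of each group, at 20462 and 6723 CPM, and ranged from 2158 to 20462 CPM in sham and from 457 to 6723 CPM in pMCAO. All 5 had fold changes below 0, with a median of −1.64 on the log2 scale, and 0 of them passed the test. The 6 T cell markers summed to 175 to 402 CPM. Their sum was likewise highest in replicate 5 of each group, at 402 and 249 CPM. Cd4, the most abundant of them, can also be carried by gut macrophages and ran otherwise. It was lowest of the sham group in replicate 5, at 113 CPM. In pMCAO replicate 5 Cd4 held 105 CPM, where the pMCAO values ran from 93.2 to 178 CPM. The remaining T cell markers were highest in replicate 5 of each group. All 6 T cell markers had fold changes below 0, with 0 past the test. Reads of Mcpt1 and Mcpt2, which are close paralogs, may have been divided between them. The part of these cells in the levels of the 8 genes was not tested.

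The sums for B and plasma cells and for epithelium did not peak in replicate 5 of each group. Markers of B and plasma cells ranged from 823 to 27280 CPM, mostly Jchain, and were highest in replicate 2 of each group, while 8 epithelial markers ranged from 116 to 1144 CPM. Eosinophil markers summed to at most 38.1 CPM, those of stroma and endothelium to at most 119 CPM, and 2 neural genes to at most 7.17 CPM. Of the 6 genes in the neutrophil list, Csf3r and Mmp9, which macrophages also express, were tested. S100a8 did not pass the filter on low counts, and S100a9, Ly6g and Cxcr2 were not analysed here. Macrophage genes were abundant in all 10 libraries. In 3 of them the CPM sum of another list was higher than that of the 16 macrophage genes, with no regard to length. Mast cell markers summed to 20462 CPM against 11955 CPM in sham replicate 5, and B and plasma cell markers to 24751 against 19269 CPM in sham replicate 2 and to 27280 against 17604 CPM in pMCAO replicate 2. The mast cell sum was mostly Mcpt1 and Mcpt2 (9667 and 9469 CPM). The sums for B and plasma cells were mostly Jchain (24253 and 26771 CPM). Such sums do not measure numbers of cells.

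**Figure D4:**
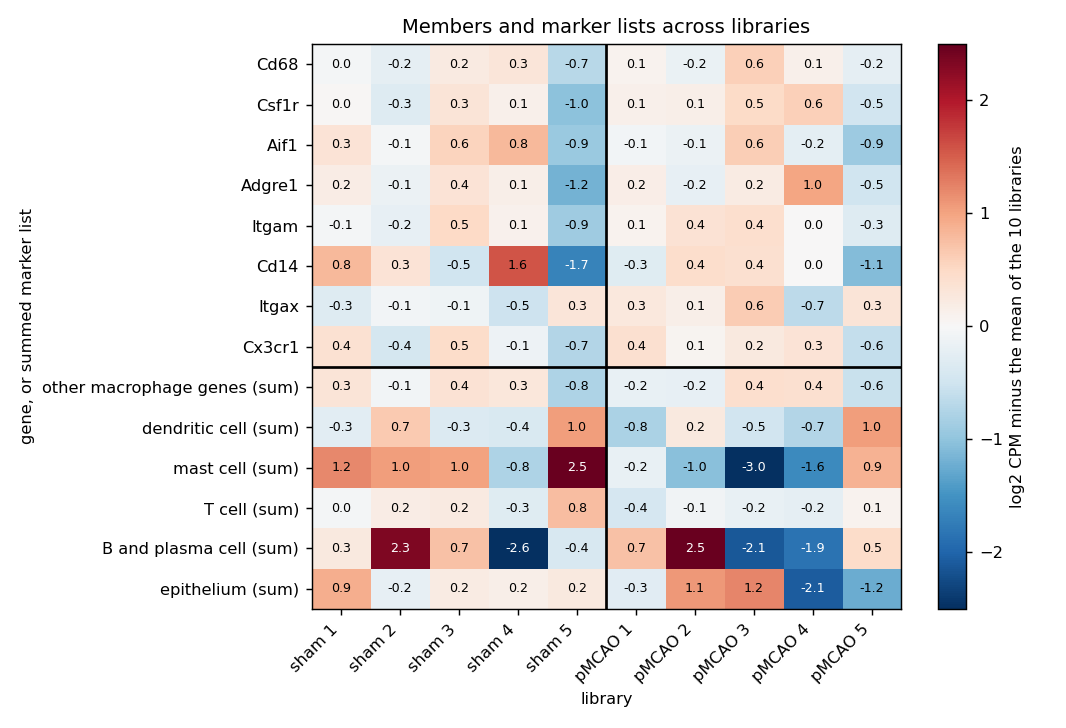
Log2 CPM of each of the 8 genes (above the line) and of the summed CPM of 6 gene lists (below it) in each library, as the difference from the mean of the 10 libraries, with red above and blue below that mean and colours limited at 2.5. Replicate 5 of both groups is blue for 7 members and for the other macrophage genes, and red for Itgax and for the dendritic and mast cell lists.

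Pairs of the 8 genes differed in how far their ratio within a library spread. The within-group SD of the log2 ratio was smallest for Csf1r and Adgre1 at 0.225, followed by Cx3cr1 and Csf1r at 0.236, Csf1r and Itgam at 0.238, and Cd68 and Itgam at 0.247. All 15 pairs among Csf1r, Adgre1, Cx3cr1, Itgam, Cd68 and Aif1 had an SD of at most 0.459. All 13 pairs with Itgax or Cd14 had an SD of at least 0.597, and the pair of Itgax and Cd14 had the largest, 1.23. This grouping was read from the values, was not tested and is a description within groups only. Ratios among the 6 genes were not constant: that of Aif1 to Adgre1, the pair with the widest spread among them, was 0.843 in sham replicate 4 and 0.229 in pMCAO replicate 4, a 3.69-fold difference. The 2 genes of a pair share the library and its scaling.

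**Figure D5:**
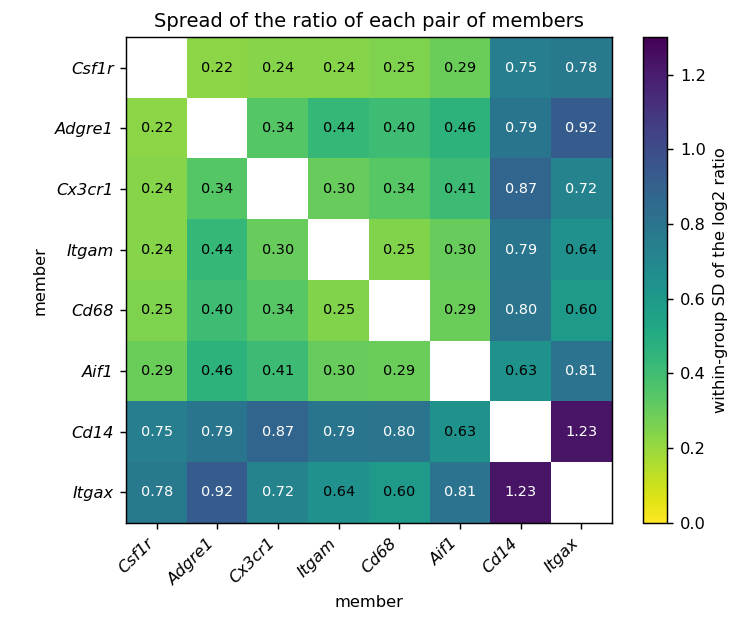
Within-group SD of the log2 ratio for every pair of the 8 genes over 10 libraries (5 per group), with lighter colours for steadier ratios. The 6 genes from Csf1r to Aif1 have SDs of at most 0.459, and the rows of Cd14 and Itgax stand out at 0.597 to 1.23.

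The genes most like each member across the 10 libraries are given for these 6 first. Likeness was Pearson's r of log2 CPM over 10 libraries, searched among 9038 genes with a mean of at least 10 CPM. For Csf1r the leading genes were Itga9 (r = 0.964) and Sirpa (r = 0.951), and Sirpa, the receptor for CD47, was also second for Itgam (r = 0.930) after Kcnj10 (r = 0.940). Adgre1 was most like Dse (r = 0.981) and Zswim6 (r = 0.973), Cx3cr1 most like Acp2 (r = 0.944) and Sptlc2 (r = 0.939), and Cd68 most like Kcnj2 (r = 0.958) and Zfp691 (r = 0.955). Aif1 was most like the tetraspanin gene Cd81 (r = 0.9748) and Lst1 (r = 0.966).

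Of the other two, Itgax was most like Rrm2, a subunit of ribonucleotide reductase (r = 0.910), and Capns1, a calpain subunit (r = 0.880). Cd14 was most like Mt1, a metallothionein (r = 0.942), and Cxcl2, a neutrophil-attracting chemokine (r = 0.941). Spearman's rho for the genes named here lay between 0.770 and 0.952. These are descriptions over libraries that share their cell mixture and depth, and the highest of 9038 values over 10 points is large by selection.

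Promoters of Csf1r, Cd14 and Adgre1 were not analysed here. For the other 5 members, Itgam, Itgax, Cx3cr1, Cd68 and Aif1, the 100 bases before a start site in the RefSeq promoter table of GRCm38.p6 are given. Each is written 5′ to 3′ on the strand of the gene, and capitals mark GAGGAA on either strand (GAGGAA or TTCCTC), the core of the purine-rich box bound by the myeloid factor PU.1. The windows are chr7:128062540-128062639 (plus strand) for Itgam, chr7:128129450-128129549 (plus) for Itgax, chr9:120068297-120068396 (minus) for Cx3cr1, chr11:69666171-69666270 (minus) for Cd68 and chr17:35176053-35176152 (minus) for Aif1.
Itgam: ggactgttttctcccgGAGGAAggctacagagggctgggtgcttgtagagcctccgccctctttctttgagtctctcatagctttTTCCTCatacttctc
Itgax: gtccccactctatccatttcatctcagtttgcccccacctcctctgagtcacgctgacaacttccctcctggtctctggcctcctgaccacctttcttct
Cx3cr1: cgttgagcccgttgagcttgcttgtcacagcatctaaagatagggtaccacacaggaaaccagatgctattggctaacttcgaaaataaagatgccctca
Cd68: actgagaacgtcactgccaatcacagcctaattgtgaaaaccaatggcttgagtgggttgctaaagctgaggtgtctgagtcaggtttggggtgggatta
Aif1: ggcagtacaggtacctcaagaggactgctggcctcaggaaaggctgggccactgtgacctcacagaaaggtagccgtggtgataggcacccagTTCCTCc
Itgam held the letters at 2 places, from −84 to −79 and from −15 to −10 relative to the start, and Aif1 at 1, from −7 to −2. The windows of Itgax, Cx3cr1 and Cd68 held none, and the longer window of 250 bases added 1 match for Cd68, from −225 to −220. Among all 32851 promoters of the table, 9.82% held GAGGAA in 100 bases and 23.3% in 250 bases. TATAAA, the TATA box, was in none of the 5 member promoters in 250 bases, against 12.4% of all promoters. Both Cx3cr1 and Itgax lacked the letters in 250 bases. A match is a description of letters, and binding was not measured.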

How the data were processed

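RNA was sequenced from 5 sham and 5 pMCAO libraries prepared from small amounts of total RNA after removal of ribosomal RNA. The authors deposited whole-number read counts per gene, with no normalization, and their own CPM. All deposited CPM values equalled the count scaled to the total of the listed counts within 0.001 and were not used further. The submitters' processing notes name STAR, featureCounts, limma, GRCm38 and mm10, and versions, annotation and strandedness are not given in the sources used here. Columns of the authors' own contrast (log2 fold change, mean expression, p-value and FDR) were not used. Without strand, reads of Csf1r could not be told from those of the opposite Hmgxb3 (15.1% of its exon bases), nor reads of Cx3cr1 from Gm33858 (1.73%).

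Counts were filtered with filterByExpr, scaled by TMM and compared with edgeR 4.0.16 (quasi-likelihood test, R 4.3.3) over 16949 genes, with no covariate, Benjamini-Hochberg adjustment and an FDR of at most 0.05. Log2 CPM used a prior count of 2, and SEs were taken from the F statistic. The 3 ratios were compared by exact permutation tests, whose smallest p is 0.00794. Lengths were exon unions of GENCODE M21 on GRCm38. All 8 members were named, together with the 2 genes most like each, and, from each list of partner genes, the gene with the highest mean CPM and that with the smallest unadjusted p. Members and lists were chosen with earlier results of these data known.

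On simulated data with these libraries' means and sizes, the test recovered 13.0% of genes changed by 1 on the log2 scale, 54.8% at 2 and 76.8% at 3, with 3 false calls among 16604 genes. No library repeated another, the smallest chi-square per degree of freedom between 2 libraries being 38.2. Alternatives were DESeq2 1.42.0, limma-voom (limma 3.58.1), upper-quartile and DESeq2 size factors, no filter, the replicate number as a block, a prior count of 0.5, total counts as library size, the longest transcript, and leaving out each library, both pools or both libraries with Xist. Leaving out both libraries numbered 5 was added after seeing the data.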

Additional observations from a re-analysis of the deposited data

How the results depend on the processing

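Over 19 alternatives the 8 log2 fold changes gave 152 values, of which 0 passed the test and 149 kept their direction. The 3 that turned were Cx3cr1 (−0.042) and Adgre1 (−0.20) without both libraries that held Xist, and Adgre1 without pMCAO replicate 4. Leaving out each library in turn gave log2 changes of 0.016 to 0.30 for Cx3cr1, 0.15 to 0.45 for Csf1r, −0.022 to 0.39 for Adgre1, 0.0032 to 0.25 for Cd68, 0.012 to 0.34 for Itgam, 0.18 to 0.47 for Itgax, −0.76 to −0.036 for Cd14 and −0.57 to −0.17 for Aif1. The median over the 8 genes was −0.0060 without both libraries that held Xist and 0.14 without both numbered 5, against 0.16 with all. The ratio of Itgax to Itgam differed by −0.020 without both pools and by 0.56 without both libraries that held Xist (exact permutation p = 0.0571, adjusted over 3 ratios 0.171). It differed by −0.082 to 0.38 over fits that lacked a single library. The cause was not tested. The order per kb kept 5 of 8 places with the longest transcript and 6 to 8 when a single library was left out, with 6 without pMCAO replicate 4.

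DESeq2 called 3 genes, none of them a member (1022 at an unadjusted p under 0.05), where edgeR called 0 (799), limma-voom 0 (882) and every fit that left out a library 0. Same-numbered libraries of the groups correlated at −0.028 to 0.59 (mean 0.33) in their deviations from the group means, above 0.1 in 4 of 5 pairs, and 5 of 10 libraries correlated best with their own number. As not every pair exceeded 0.1, the numbers were not taken as pairs. With the replicate number as a block, edgeR called 0 genes (1303 at an unadjusted p under 0.05, smallest adjusted p 0.173). The block gave log2 changes of 0.35 for Csf1r (unadjusted p = 0.0314, adjusted 0.637) and −0.21 for Cd14. With the block 1 of the 8 genes had an unadjusted p under 0.05, against 0 in the main fit. Itgax also fell under 0.05 without both libraries that held Xist (edgeR unadjusted p = 0.00674) and without pMCAO replicate 4 (0.0318).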
